A study of Mus musculus with 6 samples.

Results

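The D cyclins, the kinases CDK4 and CDK6 and the CDK inhibitors of the CIP/KIP and INK4 families control entry into the cell cycle, and 10 of their genes were followed here in mouse fetal liver progenitors. The genes were chosen by name, with earlier results of these data known. The set held Ccnd1, Ccnd2 and Ccnd3, Cdk4 and Cdk6, Cdkn1a, Cdkn1b and Cdkn1c, and Cdkn2c and Cdkn2d. They are 10 of the 24376 Ensembl gene IDs in the deposited tables, and all 10 passed the filter on low counts that left 12670 genes to test. The libraries fall into a group with a short hairpin RNA (shRNA) against Samd14 (3 libraries) and a group with a control shRNA (3 libraries). Cells process such a hairpin into a short guide that brings down matching transcripts. Both groups were blood progenitors of C57BL/6 embryos at day E14.5, enriched from fetal liver with a commercial kit, infected with retrovirus and kept 3 days in culture. From each culture 200000 cells without the surface proteins CD71 and Ter119, which mark maturing red cells, were lysed for polyadenylated RNA. What the control shRNA targets, and how many hairpins against Samd14 were used, is not given in the sources used here. Neither do the labels say whether replicates are different embryos or cultures. Every p-value therefore reflects no more than how far these libraries spread, and that spread may be technical.

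D cyclins are made in response to growth signals and bind CDK4 or CDK6, and the active complexes phosphorylate the retinoblastoma protein and its relatives p107 and p130, which releases E2F transcription factors that switch on genes of DNA replication. INK4 proteins bind CDK4 and CDK6 and keep them from pairing with cyclins, while CIP/KIP proteins bind cyclin and kinase together and block CDK2 complexes. In mouse blood formation, loss of all D cyclins or of both kinases impairs fetal liver hematopoiesis, and cyclin D3 with CDK6 is known for its role in timing the last divisions of erythroid cells.

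Samd14, the targeted gene, had 41.9, 38.8 and 39.4 CPM in shSamd14 libraries, against 82.0, 82.1 and 83.8 CPM in control libraries. This is a log2 fold change of -1.05 (SE 0.06; edgeR adjusted p = 4.69e-07). Groups were compared with the quasi-likelihood test of edgeR, and p-values were adjusted by Benjamini-Hochberg over all tested genes. CPM are read counts scaled to a common library size and composition, and a gene is called changed at an adjusted p under 0.05. The libraries held 23862151 to 26462797 expected counts in the shSamd14 group and 20584169 to 24069711 in the control group, so that 3 counts in a library correspond to between 0.113 and 0.146 CPM. Markers of hematopoietic progenitors (Kit, Cd34, Myb, Gata2, Cd48 and Ptprc) summed to between 1078 and 1098 CPM in shSamd14 libraries and between 1092 and 1270 CPM in control libraries, and none of the 6 was absent. Hepatocyte markers summed to at most 35.2 CPM in shSamd14 and 50.6 CPM in control libraries, and B and T lymphocyte markers to at most 0.439 CPM in shSamd14 and 0.564 CPM in control libraries.

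Among the 10 genes, cyclin D2 (Ccnd2) was the 1 that passed the test. It was higher in shSamd14 libraries by 1.23-fold, and none of the 10 was called lower. Of all tested genes, 2.58% were called, 1.32% as higher and 1.26% as lower. At an unadjusted p under 0.05 in edgeR, Ccnd2 and Cdkn2d were higher and Cdk6 and Cdkn1b lower. The share of all tested genes at that unadjusted p was not counted, here or for the gene lists below. DESeq2 called Ccnd2 higher and Cdk6 lower, and of 11195 genes it called 188 higher and 238 lower. The CPM of the groups did not overlap for 3 of the 10 genes, with Ccnd2 and Cdkn2d above and Cdk6 below, beside 20.7% of all tested genes. The levels of the 10 genes, given in TPM, a transcript abundance scaled for gene length as well as depth, spanned about 2 orders of magnitude. Averaged over the 6 libraries they ran from 451 TPM for Cdk4, above the level of 97.7% of tested genes, down to 3.28 TPM for Cdkn1c, above 22.2% of them. Cyclin D3 was the leading D cyclin at 189 TPM and p21 (Cdkn1a) the leading inhibitor at 187 TPM, and the ranges of these 2 genes overlapped. Ccnd2 followed at 61.4 TPM, Cdk6 at 44.7 TPM, Cdkn2d at 25.9 TPM, Cdkn1b at 22.3 TPM, Ccnd1 at 5.22 TPM and Cdkn2c at 4.77 TPM. The ranges also overlapped between Ccnd2 and Cdk6, between Cdkn2d and Cdkn1b, and between Ccnd1 and Cdkn2c. Within each of the 6 libraries, however, Ccnd2 lay above Cdk6. Cdkn1a lay above Ccnd3 in shSamd14 replicates 1 and 2 and in control replicate 1. The order of Cdkn2d and Cdkn1b, and that of Ccnd1 and Cdkn2c, was reversed in control replicate 1 alone. There Cdkn1b stood at 28.8 TPM and Cdkn2d at 23.4 TPM, and Cdkn2c at 5.52 TPM and Ccnd1 at 4.77 TPM.

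**Figure D1:**
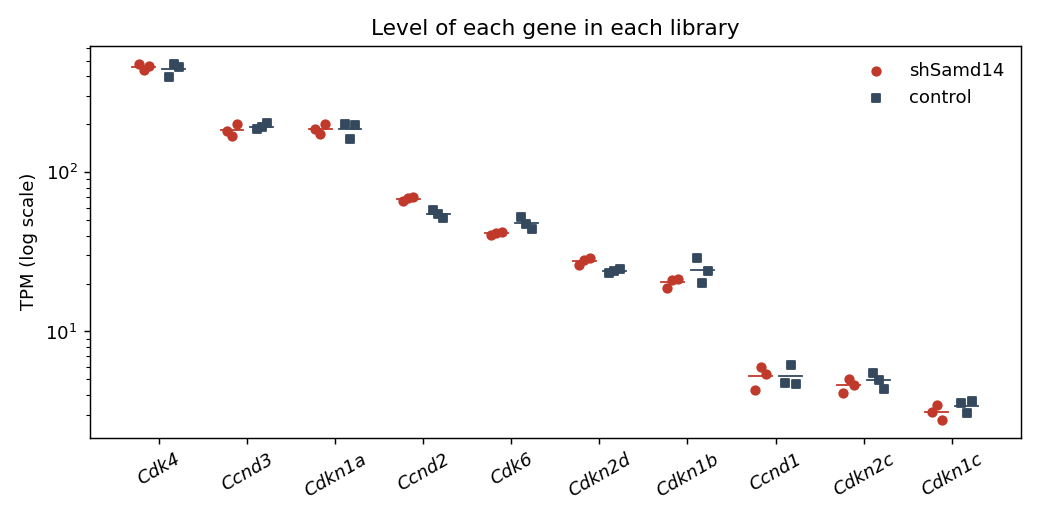
Level of each of the 10 genes in TPM (log axis) in each shSamd14 library (circles) and each control library (squares), with the group mean as a line, from the highest gene to the lowest. Cdk4 lay at 394 TPM or more in every library, Ccnd3 and Cdkn1a shared the next range, and Ccnd1, Cdkn2c and Cdkn1c lay between 2.79 and 6.18 TPM.

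Short stretches of the 3′ untranslated region (UTR) are shown for the members that hold 1 of 4 words of 7 bases. The words were found in an earlier search of these same data for words shared by changed genes, so their presence is a description and no independent evidence. They form 2 pairs, CTGATTA with TGATTAA and CAAGTGT with AAGTGTA, and the words of a pair overlap each other by all but their end base. The search covered the transcript strand of the longest 3′ UTR that GENCODE M21 (GRCm38, the assembly of mm10) annotates for a gene. The capitals below mark the word, with 10 bases to each side.
Ccnd2, chr6:127129387-127129413, minus strand: acttttggtgCTGATTAgcatgtctgg
Cdk6, chr5:3521244-3521270, plus strand: ctgatctcgtCAAGTGTtacttttttt
Cdk6, chr5:3522106-3522132, plus strand: tcctatctttAAGTGTAtgttgtcagt
Cdk6, chr5:3528660-3528686, plus strand: tcagtaggttAAGTGTAacacttttgg
Cdk6, chr5:3529177-3529203, plus strand: ggttaacgggCAAGTGTtaggcacaga
Cdkn1b, chr6:134923050-134923076, plus strand: aggtccaacaCAAGTGTggatttttcc
The UTR of Ccnd2, which rose, held CTGATTA once, at base 932 of 5173. Cdk6, which lay lower without passing the test, held CAAGTGT at 2 places and AAGTGTA at 2 places in a UTR of 10217 bases, and Cdkn1b held CAAGTGT once, at base 986 of 3439. The UTRs of the other 7 members held none of the 4 words. The UTRs of Ccnd2, Cdk6 and Cdkn1b are the longest of the 10. The files give Cdk6 a length of 3311 to 3356 bases and Cdkn1b one of 3176 to 3312 bases, shorter than these UTRs, so the transcripts behind both values did not all hold the full UTR. Across 11844 tested genes with a UTR of at least 50 bases, 14.4% held a word of the first pair, and of these 5.81% were called higher and 0.997% lower. A word of the second pair was held by 21.7%, of which 1.44% were called higher and 3.50% lower. Among the 8219 genes with none of the words, 0.706% were called higher and 0.767% lower. The median UTR length was 2519 bases with the first pair, 2417 bases with the second pair and 861 bases with none of the words.

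Ccnd2 (ENSMUSG00000000184; chromosome 6, 127125162 to 127152193, minus strand, GRCm38) encodes cyclin D2, a D cyclin induced by cytokine signals in blood cells. It had 232, 234 and 232 CPM in shSamd14 libraries, against 193, 194 and 183 CPM in control libraries. All 3 shSamd14 libraries lay above all 3 control libraries, and the shSamd14 libraries hardly differed among themselves. The means were 233 ± 1.27 CPM in shSamd14 and 190 ± 6.20 CPM in control libraries (SD, n = 3 each). On the log2 scale shSamd14 stood 0.30 above control (SE 0.06, 95% interval 0.17 to 0.42; edgeR adjusted p = 0.0118). Per length, Ccnd2 stood at 67.8 ± 1.99 TPM in shSamd14 and 54.9 ± 2.99 TPM in control libraries. The call was lost in fits without shSamd14 replicate 2 or without control replicate 3, which hold fewer libraries. Without shSamd14 replicate 2 the log2 fold change was 0.289 (edgeR adjusted p = 0.0719), and without control replicate 3 it was 0.261 (edgeR adjusted p = 0.0519). Over all genes these fits called 128 and 283, against 327 with all libraries. In bulk samples, more cells of a type that carries a transcript and more of the transcript per cell cannot be told apart. Summed megakaryocyte markers lay between 498 and 532 CPM in shSamd14 libraries and between 387 and 419 CPM in control libraries, with 4 of the 12 markers called higher. Summed erythroid markers lay between 4406 and 4874 CPM in shSamd14 and between 3480 and 4224 CPM in control libraries, with 3 of 12 called higher. None was called of the markers that were high enough to test, which were 6 of 9 for mast cells, 11 of 12 for neutrophils and monocytes, 5 of 5 for eosinophils, 4 of 7 for hepatocytes, 3 of 6 for endothelium, 3 of 7 for stroma and 2 of 7 for macrophages. Of the lymphocyte markers 0 of 8 could be tested. The summed levels of each of these lists overlapped between groups, and Mcpt4, Serpina1a, Col3a1, C1qa and Cd5l were at 0 in every library. The part of these cells in the level of Ccnd2, and in the other changes given here, was not tested.

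Ccnd3 (ENSMUSG00000034165; chromosome 17, 47505051 to 47599691, plus strand) encodes cyclin D3, a D cyclin that helps set the number of divisions of mouse red cell precursors. It had 182, 169 and 202 TPM in shSamd14 libraries, against 186, 191 and 202 TPM in control libraries. The groups overlapped, with shSamd14 replicate 2 the lowest library of all. In counts, shSamd14 differed from control by a log2 fold change of -0.03 (SE 0.07, 95% interval -0.19 to 0.13; edgeR adjusted p = 0.889), and its sign turned without shSamd14 replicate 2 or without control replicate 3. A processed pseudogene of Ccnd3 is annotated and was not analysed here.

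Ccnd1 (ENSMUSG00000070348; chromosome 7, 144929931 to 144939925, minus strand) encodes cyclin D1, the form best known from solid tissues. It had 4.29, 5.99 and 5.41 TPM in shSamd14 libraries, against 4.77, 6.18 and 4.70 TPM in control libraries. The groups overlapped, at a level far below that of Ccnd2 and Ccnd3. Its log2 fold change was -0.01 (SE 0.14, 95% interval -0.32 to 0.29; edgeR adjusted p = 0.974), and its sign differed between settings.

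Cyclin D3 made up 72.3%, 69.4% and 72.9% of the summed TPM of the D cyclins in shSamd14 libraries, against 74.8%, 75.8% and 78.1% in control libraries. Its share was lower in every shSamd14 library than in any control library. Cyclin D2 took the other side, with 26.4 ± 1.54% in shSamd14 and 21.7 ± 1.62% in control libraries, and cyclin D1 held 2.04 ± 0.388% in shSamd14 and 2.06 ± 0.338% in control libraries (SD, n = 3 each). The ratio of Ccnd3 to Ccnd2 in TPM was 2.78, 2.47 and 2.90 in shSamd14 libraries, against 3.21, 3.49 and 3.90 in control libraries. Shares and ratio come from the same levels of Ccnd2 and Ccnd3, so they are no separate evidence. The TPM of Ccnd3 itself overlapped between groups. The summed TPM of the D cyclins was 257 ± 17.3 in shSamd14 and 253 ± 5.19 in control libraries, and the groups overlapped. Per length Ccnd3 led in every library, where the files give Ccnd2 a length of 5701 bases and Ccnd3 one between 1703 and 1815 bases. By CPM, with no scaling for length, Ccnd2 stood above Ccnd3 in the 3 shSamd14 libraries and in control replicate 1, and below it in control replicates 2 and 3. By this measure Ccnd2 held 53.05 ± 1.69% in shSamd14 and 47.5 ± 2.77% in control libraries, and Ccnd3 held 44.3 ± 2.00% in shSamd14 and 49.6 ± 2.91% in control libraries.

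**Figure D2:**
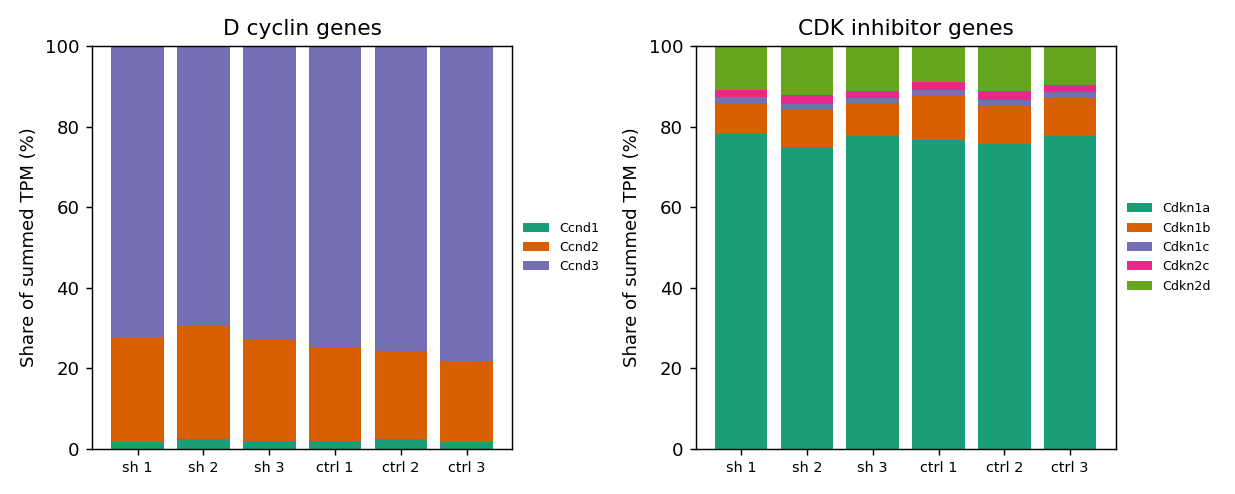
Share of each gene in the summed TPM of the 3 D cyclins (left) and of the 5 inhibitors (right), in percent, as 1 stacked bar per library, with shSamd14 libraries (sh 1 to 3) left of control libraries (ctrl 1 to 3). Ccnd3 held between 69.4% and 78.1% of the D cyclin sum and Cdkn1a between 74.99% and 78.05% of the inhibitor sum.

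Cdk4 (ENSMUSG00000006728; chromosome 10, 127063534 to 127067920, plus strand), a catalytic partner of the D cyclins, was the most abundant of the 10 genes. It had 477, 435 and 464 TPM in shSamd14 libraries, against 394, 480 and 455 TPM in control libraries. The groups overlapped, and control replicates 1 and 2 held the lowest and the highest values. Between the groups the log2 fold change was 0.03 (SE 0.07, 95% interval -0.13 to 0.19; edgeR adjusted p = 0.886), and its sign turned without shSamd14 replicate 1 or without control replicate 1.

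Cdk6 (ENSMUSG00000040274; chromosome 5, 3341485 to 3531008, plus strand) encodes the other kinase, whose level is known to matter for stem and progenitor cell activity. It had 83.3, 82.3 and 81.1 CPM in shSamd14 libraries, against 103, 97.1 and 90.6 CPM in control libraries. All 3 shSamd14 libraries lay below all 3 control libraries, with control replicate 3 the nearest to them. The means were 82.2 ± 1.097 CPM in shSamd14 and 96.8 ± 6.07 CPM in control libraries (SD, n = 3 each). The log2 fold change was -0.24 (SE 0.06, 95% interval -0.37 to -0.10), and missed the threshold (edgeR adjusted p = 0.0653). Cdk6 passed in 1 of 6 fits with 1 library left out. That fit, without control replicate 3, gave -0.288 (edgeR adjusted p = 0.0383). Without control replicate 1 the log2 fold change was -0.196 (edgeR adjusted p = 0.263). Cdk4 made up 91.7 ± 0.471% of the summed TPM of both kinases in shSamd14 and 90.1 ± 1.67% in control libraries. Each shSamd14 library lay above each control library, but narrowly, at 91.26% or more against 91.16% or less. Control replicate 1 was the lowest, at 88.2%. Together the kinases had 500.4 ± 20.96 TPM in shSamd14 and 491 ± 40.8 TPM in control libraries, and the groups overlapped.

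**Figure D3:**
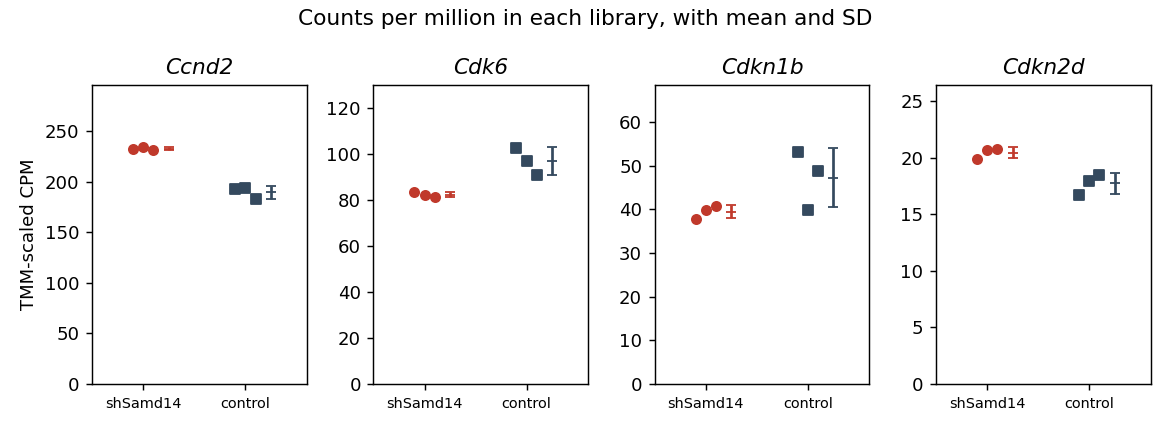
TMM-scaled CPM of Ccnd2, Cdk6, Cdkn1b and Cdkn2d in each shSamd14 library (circles) and each control library (squares), with mean and SD of 3 libraries beside them and axes that start at 0. The groups do not overlap for Ccnd2, Cdk6 and Cdkn2d, and control replicate 2 of Cdkn1b lies among the shSamd14 libraries.

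Cdkn1a (ENSMUSG00000023067; chromosome 17, 29090976 to 29100727, plus strand) encodes p21, the CIP/KIP inhibitor induced by p53. It had 186, 173 and 201 TPM in shSamd14 libraries, against 201, 161 and 197 TPM in control libraries. The groups overlapped, and in both of them replicate 2 was the lowest. For Cdkn1a the log2 fold change was -0.01 (SE 0.08, 95% interval -0.17 to 0.16; edgeR adjusted p = 0.977), and its sign differed between settings. Cdkn1a carried 76.9 ± 1.67% of the summed TPM of the 5 inhibitors in shSamd14 and 76.7 ± 1.07% in control libraries (SD, n = 3 each), by far the highest share of the 5.

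Cdkn1b (ENSMUSG00000003031; chromosome 6, 134920401 to 134925513, plus strand) encodes p27, a CIP/KIP inhibitor that builds up in resting cells and is removed by ubiquitination as they enter the cycle. It had 37.8, 39.8 and 40.8 CPM in shSamd14 libraries, against 53.1, 39.9 and 48.7 CPM in control libraries. Control replicate 2 lay among the shSamd14 libraries, and the other 2 control libraries lay above all of them. This gave a log2 fold change of -0.26 (SE 0.09, 95% interval -0.46 to -0.06; edgeR adjusted p = 0.191). Cdkn1b passed in 1 of 6 fits with 1 library left out. That fit, without control replicate 2, gave -0.367 (edgeR adjusted p = 0.0296). Without control replicate 1 the log2 fold change was -0.171 (edgeR adjusted p = 0.543). In the 12 other settings Cdkn1b passed in 0. The share of Cdkn1b in the summed TPM of the inhibitors was 8.39 ± 0.632% in shSamd14 and 9.97 ± 0.874% in control libraries. The groups did not overlap in this share, with at most 9.10% in shSamd14 and at least 9.46% in control libraries. The TPM of Cdkn1b itself overlapped between groups, and so did the shares of Cdkn1a, Cdkn1c, Cdkn2c and Cdkn2d.

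Cdkn1c (ENSMUSG00000037664; chromosome 7, 143458339 to 143461050, minus strand) encodes p57, an imprinted CIP/KIP gene linked to quiescence of blood stem cells in the mouse. It had 3.63, 3.86 and 3.04 CPM in shSamd14 libraries, against 3.86, 3.53 and 4.20 CPM in control libraries. The groups overlapped, and every library held between 80 and 101 counts of it. At this depth the 95% interval of its log2 fold change ran from -0.49 to 0.20, around a value of -0.14 (SE 0.16; edgeR adjusted p = 0.738). The summed TPM of the CIP/KIP genes was 210 ± 14.0 in shSamd14 and 214 ± 26.3 in control libraries, and the groups overlapped.

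Cdkn2d (ENSMUSG00000096472; chromosome 9, 21288410 to 21291407, minus strand) encodes p19, an INK4 inhibitor of CDK4 and CDK6. It had 19.9, 20.7 and 20.8 CPM in shSamd14 libraries, against 16.7, 17.99 and 18.5 CPM in control libraries. All 3 shSamd14 libraries lay above all 3 control libraries. The means were 20.5 ± 0.478 CPM in shSamd14 and 17.7 ± 0.930 CPM in control libraries (SD, n = 3 each), a 1.15-fold difference. The log2 fold change was 0.21 (SE 0.08, 95% interval 0.03 to 0.38), which did not pass the test (edgeR adjusted p = 0.251). Its 3′ UTR held none of the 4 words.

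Cdkn2c (ENSMUSG00000028551; chromosome 4, 109660876 to 109667189, minus strand) encodes p18, an INK4 inhibitor that limits self-renewal of blood stem cells in the mouse. It had 4.63, 4.57 and 4.48 CPM in shSamd14 libraries, against 5.02, 4.83 and 4.50 CPM in control libraries. Control replicate 3 lay among the shSamd14 libraries, and counts ran from 104 to 121 per library. For Cdkn2c the log2 fold change was -0.07 (SE 0.14, 95% interval -0.37 to 0.23; edgeR adjusted p = 0.868). Of the INK4 genes outside the 10, Cdkn2b (p15) had 0.57, 0.67 and 0.52 TPM in shSamd14 libraries, against 0.55, 0.73 and 0.60 TPM in control libraries. The groups overlapped, at a log2 fold change of -0.12 (SE 0.33; edgeR adjusted p = 0.904) whose sign turned without control replicate 2. Cdkn2a, which encodes p16 and p19Arf, had 0.33 TPM at most in shSamd14 and 0.20 TPM at most in control libraries and was too low to test. Over all 5 inhibitors the summed TPM was 242 ± 14.7 in shSamd14 and 243 ± 26.4 in control libraries, and the groups overlapped.

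**Figure D4:**
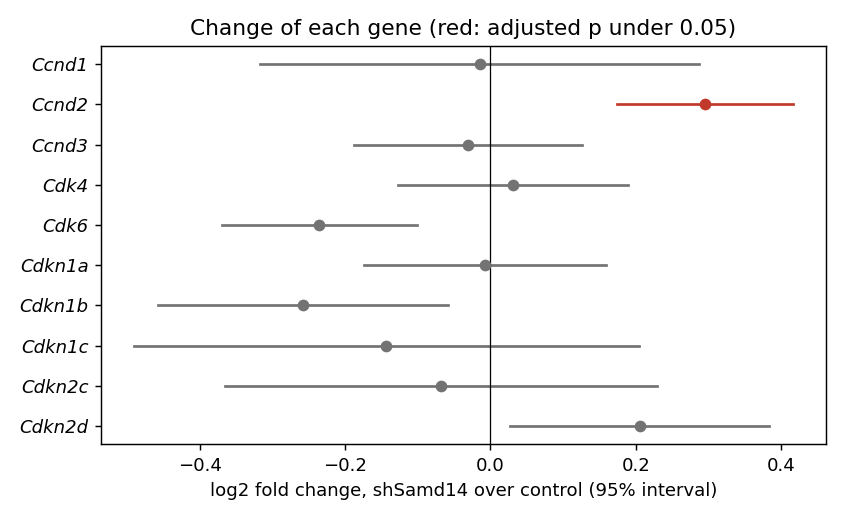
Log2 fold change of shSamd14 over control for each of the 10 genes, from the quasi-likelihood fit of edgeR, with its 95% interval as a line. Ccnd2 is the gene that passed an adjusted p of 0.05 (red), and the intervals of Cdk6 and Cdkn1b lie below 0 and that of Cdkn2d above 0 without adjustment for the number of genes tested.

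The size of these differences can be read against the rest of the genes. Over all 12670 tested genes the median log2 fold change was 0.006 and the median absolute log2 fold change 0.097. Ccnd2, Cdkn1b, Cdk6, Cdkn2d and Cdkn1c exceeded the second value, and the other 5 members were below it. Exons of several members overlap a gene on the opposite strand, and whether counting used strand is not given in the sources used here, so reads of the overlap cannot be assigned. Ccnd1 shares 1100 exon bases with LTO1, at a log2 fold change of -0.12 (edgeR adjusted p = 0.588). Cdk4 shares 641 bases with Tspan31, at -0.03 (edgeR adjusted p = 0.864). Ccnd3 shares 361 bases with Bysl, at 0.15 (edgeR adjusted p = 0.314). Ccnd2 shares 368 bases with 9330179D12Rik, which held between 1 and 4 counts per library.

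For the leading D cyclin and the leading inhibitor, the tested genes with the most similar profile of log2 CPM over the 6 libraries were looked up as a description. Ccnd3 was most like Aldh1l1 (Pearson r = 0.985), Tnfrsf21 (0.984) and Gm9949 (0.983), and 87 genes had an r over 0.9. Cdkn1a was most like Lsr (r = 0.997), Col23a1 (0.981) and Saa3 (0.981), and 100 genes had an r over 0.9. The 6 points share libraries and depth, so these values order the genes and test nothing.

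Around the 10 genes, 96 further genes of the pathway were listed by role, with earlier results of these data known. Tests were possible for 94 of them. Of these, 2 rose, 2 fell and 90 did not pass, with a median log2 fold change of 0.01. The RB and E2F list had 13 genes, of which Rbl2 and E2f2 rose and none fell (edgeR; none was lower at an unadjusted p under 0.05 or in DESeq2), with a median of 0.09. Rbl2 encodes p130, a pocket protein that D cyclin kinases phosphorylate and that holds E2F targets off in resting cells. It had 79.2, 86.3 and 91.9 CPM in shSamd14 libraries, against 60.1, 58.3 and 61.2 CPM in control libraries. The shSamd14 libraries lay well above the control libraries, with a 1.43-fold difference and a log2 fold change of 0.52 (SE 0.07; edgeR adjusted p = 0.000827). Exons of Rbl2 share 693 bases with Aktip on the opposite strand, which fell by 0.57 on the log2 scale (edgeR adjusted p = 0.0175). E2f2, an E2F activator used in erythroid cells, had 85.9, 80.8 and 91.2 CPM in shSamd14 libraries, against 68.6, 63.1 and 66.3 CPM in control libraries. The groups lay apart, with a 1.30-fold difference and a log2 fold change of 0.38 (SE 0.07; edgeR adjusted p = 0.00683), and E2f2 missed the threshold in the 3 fits of limma on TPM.

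Of the 22 genes on the list of E2F targets, Rrm2 fell and none rose, with a median of 0.03. Cdt1 was higher at an unadjusted p under 0.05 in edgeR and was called higher in DESeq2. Rrm2, the regulatory subunit of ribonucleotide reductase, had 326, 329 and 290 CPM in shSamd14 libraries, against 428, 419 and 409 CPM in control libraries. The groups lay apart, with shSamd14 at 0.752 of the control level and a log2 fold change of -0.41 (SE 0.07; edgeR adjusted p = 0.00421). Of the 16 p53 targets, Btg2, an antiproliferative gene, fell and none rose, with a median of -0.05. At an unadjusted p under 0.05 in edgeR, Mdm2, Ccng1 and Eda2r were lower too and none was higher, and DESeq2 called Btg2 lower and none higher. Btg2 had 38.0, 41.4 and 43.7 CPM in shSamd14 libraries, against 53.6, 49.1 and 66.5 CPM in control libraries. Its log2 fold change was -0.46 (SE 0.10; edgeR adjusted p = 0.0452), and it passed in 1 of 6 fits with 1 library left out, the one without control replicate 2, while without control replicate 3 the log2 fold change was -0.329. Among these 4 genes the words of the 3′ UTR were present in Rbl2 and Rrm2 and absent from E2f2 and Btg2. The sites are given in the same notation, with that of Ccne1, a gene described next that lay higher and holds a word of the second pair.
Rbl2, chr8:91122530-91122557, plus strand: aatccagcaaCTGATTAAaggaggggat
Rrm2, chr12:24713919-24713945, plus strand: acaggaaaagCAAGTGTtccctgaggt
Ccne1, chr7:38098111-38098137, minus strand: tggttgtgagCAAGTGTgggatgcaga
In Rbl2 the capitals hold CTGATTA and TGATTAA as 1 overlapping run, at base 94 of a UTR of 1398 bases, in Rrm2 CAAGTGT stood at base 697 of 914 and in Ccne1 at base 388 of 531. Words of both pairs also occurred in other listed genes, in some that lay higher and in some that lay lower. Ccne1 (log2 fold change 0.25) and Skp2 (0.16) lay higher and held words of the second pair, and Eda2r (-0.24) and Ccng1 lay lower and held words of the first pair, while Cul4a lay higher with TGATTAA, and Bmi1 and Mdm2 lower with CAAGTGT and AAGTGTA. None of these 7 genes passed the test.

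With all 6 libraries, no gene passed in edgeR on the lists of cyclin E, cyclin A and CDK2 (5 tested), CDK activation (8), turnover of D cyclins and p27 (13) or upstream regulators (16), whose medians were -0.01, 0.05, 0.01 and 0.01. At an unadjusted p under 0.05 in edgeR, Ccne1, Cdc25b, Pkmyt1, Skp2, Cul4a and Gfi1b were higher and Ccne2 and Bmi1 lower. DESeq2 called Ccne1 and Gfi1b higher and Bmi1 lower, and no gene of the CDK activation and turnover lists. Ccne1, which encodes cyclin E1, the cyclin that acts after the D cyclins, came closest, with 85.5, 83.2 and 78.5 CPM in shSamd14 libraries, against 66.1, 71.6 and 70.4 CPM in control libraries. The groups of Ccne1 lay apart and the log2 fold change was 0.25 (SE 0.06; edgeR adjusted p = 0.0538). Ccne1 passed in 1 of 6 fits with 1 library left out. That fit, without shSamd14 replicate 3, gave 0.277 (edgeR adjusted p = 0.0495). Without control replicate 1 the log2 fold change was 0.209 (edgeR adjusted p = 0.238). Bmi1, the Polycomb repressor of the Cdkn2a locus, lay at a log2 fold change of -0.25 (SE 0.07; edgeR adjusted p = 0.0653). Pkmyt1, an inhibitory kinase of CDK1, stood at 0.22 (edgeR adjusted p = 0.199) and Cul4a, a ubiquitin ligase scaffold, at 0.14 (edgeR adjusted p = 0.236).

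**Figure D5:**
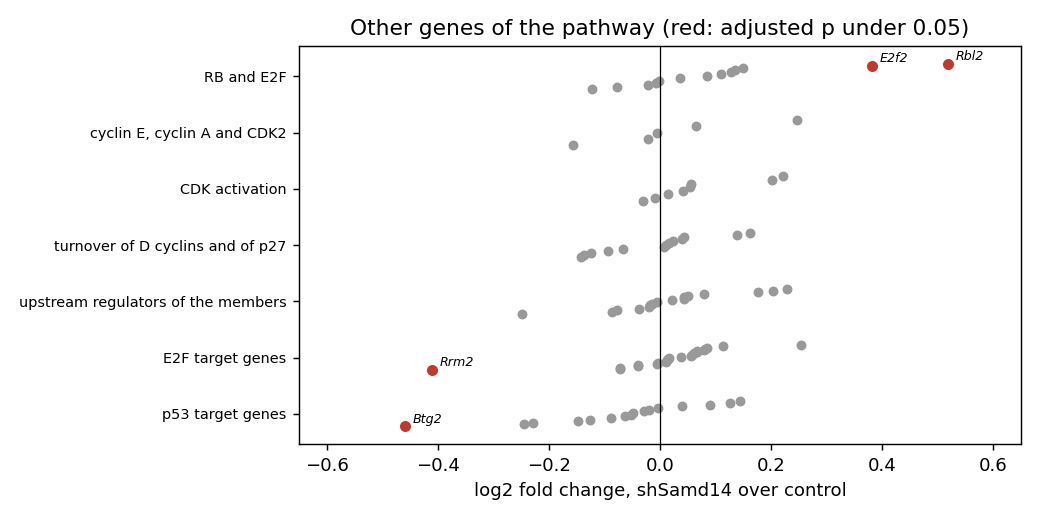
Log2 fold change of shSamd14 over control for the tested genes of 7 pathway lists, 1 point per gene and 1 row per list, with genes past an adjusted p of 0.05 (edgeR) in red and named. Rbl2 (0.52) and E2f2 (0.38) stand to the right of their list, and Rrm2 (-0.41) and Btg2 (-0.46) to the left of theirs.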

How the data were processed

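Polyadenylated RNA of 6 libraries, 3 with an shRNA against Samd14 and 3 with a control shRNA, was sequenced. Per the submitters' processing notes, the tools included RSEM 1.2.15, Bowtie 1.0.1 and CASAVA 1.8.2, with the mm10 build. Whether reads were trimmed or counted by strand, and against which annotation release, is not given in the sources used here. Each library has an RSEM table by gene, in which the authors deposited expected counts (reads that map to several genes are shared between them), TPM, FPKM and lengths in bases, per the file headers. TPM and FPKM were scaled for length and depth by the authors. GENCODE M21 (GRCm38) gave a symbol to 23580 of the 24376 Ensembl IDs, and the coordinates and 3′ UTRs. In all libraries 6432 IDs were at 0.

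Expected counts, rounded to whole numbers, went into edgeR 4.0.16 (R 4.3.3): filterByExpr by group (minimum count 10, minimum total 15), TMM factors (0.986 to 1.02), robust dispersions (coefficient of variation 7.52%) and the two-sided quasi-likelihood test, adjusted by Benjamini-Hochberg over 12670 genes. Each SE was taken as the size of the log2 fold change over the root of its F statistic. Levels of different genes were compared in TPM. Between replicates, counts differed with a chi-square of 5.75 to 12.3 per gene, above sampling noise, so no library was a duplicate. The text names all 10 members, Samd14, the pathway genes that passed or, where none did, the gene of smallest p in each list, and the 3 genes most like the leading D cyclin and inhibitor; genes that overlap a named gene, and those given for an unadjusted p or a DESeq2 call, were added after their values were seen. Members, gene lists and UTR words were chosen with earlier results of these data known. The list of progenitor markers was added after the files were read.

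Alternatives were RLE and upper-quartile factors, no filter, a filter of 1 CPM in 3 libraries, length offsets, a replicate block, DESeq2 1.42.0, limma-voom and limma 3.58.1 on log2(TPM + 1) or log2(TPM + 0.1), no robust estimation, and each library left out. Intervals of counts cover counting and replicate error between these libraries only.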

Additional observations from a re-analysis of the deposited data

How the results depend on the processing

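Ccnd2 passed in 10 of 12 other settings, with log2 fold changes of 0.292 to 0.307, and missed the threshold with limma on log2(TPM + 0.1) (adjusted p = 0.0501) and on log2(TPM + 1) without a filter (adjusted p = 0.131). Cdk6 passed without a filter, with the replicate block and in DESeq2 (adjusted p 0.0380 to 0.0390). The number of the 10 genes called, 1 in the edgeR test as reported, was therefore 2 without a filter, 2 with the replicate block, 2 in DESeq2, and 0 with limma on log2(TPM + 0.1) and 0 on log2(TPM + 1) without a filter. With 1 library left out it ran from 0 (without shSamd14 replicate 2) to 2 (without control replicate 2, Ccnd2 and Cdkn1b), and without control replicate 3 it was Cdk6 in place of Ccnd2. Over all genes 327 were called, against 682 with the replicate block, 136 with limma on log2(TPM + 1), 130 on log2(TPM + 0.1) and 16 on log2(TPM + 1) without a filter, and 128 to 283 with 1 library left out (128 without shSamd14 replicate 2 and 153 without control replicate 1). Whether the replicate numbers pair the samples is not given by the labels, and the correlations of 3 libraries a group cannot settle it. Libraries of the same number correlated at -0.0723, 0.153 and 0.272 in their deviations from the group means. Not every library correlated best with its own number. The test as reported used no pairing.

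Among the members the sign turned for Ccnd1, Ccnd3, Cdk4 and Cdkn1a, at log2 fold changes of -0.01, -0.03, 0.03 and -0.01 in the edgeR test as reported, and outside them for Cdkn2b, which lay at -0.12. Ccnd1 was at 0.00179 with limma on log2(TPM + 1), with or without a filter, and 0.00166 on log2(TPM + 0.1), and at -0.123 to 0.141 with 1 library left out. Cdkn1a was at 0.00508 or 0.00513 in those settings and at -0.0892 to 0.0458 with 1 library left out. The left-out ranges were -0.0911 to 0.0307 for Ccnd3, -0.0519 to 0.0943 for Cdk4 and -0.224 to 0.0178 for Cdkn2b. Rbl2, E2f2 and Rrm2 passed in all 6 fits with 1 library left out. In the 12 other settings Rbl2 (adjusted p = 0.127) and Rrm2 (0.131) missed with limma on log2(TPM + 1) without a filter. E2f2 missed in 3, with limma on log2(TPM + 1) (0.0618), on log2(TPM + 0.1) (0.0619) and on log2(TPM + 1) without a filter (0.186). Btg2 missed in 5, at 0.0646 with upper-quartile factors, 0.0531 with limma-voom and 0.110 to 0.299 with limma on TPM. Some pathway genes that missed in edgeR as reported passed elsewhere. With the replicate block these were Ccne1 (0.0341), Bmi1 (0.0301), Gfi1b and Cdt1, without a filter Ccne1 (0.0243) and Bmi1 (0.0341), and with a filter of 1 CPM in 3 libraries Ccne1 (0.0490). Of the 12 other settings Ccne1 passed in 4 and Bmi1 in 3. With length offsets in edgeR the log2 fold change of Ccne1 was lower, at 0.184 (adjusted p = 0.156). FPKM and CPM per kilobase have other units than TPM, so they were compared as shares, which moved by less than 1 SD. This comparison tests little. Shares by FPKM equal those by TPM by construction, and CPM per kilobase rests on the same counts and lengths. The cause of these changes was not tested. With 3 libraries a group and changes this small, a miss of the threshold does not show that a gene was equal between groups, and the levels of Ccnd1, Cdkn1c and Cdkn2c rest on few reads.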
